A study of Mus musculus with 55 samples.

Results

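Mature B cells were compared with immature B cells, both sorted from mouse bone marrow, by transcript levels on oligonucleotide arrays. Mature cells had been sorted as B220 high cells with surface IgM, and immature cells as B220 low cells with surface IgM. Arrays were taken by their titles, which gave 21 of the 55 arrays of the series, 11 of mature and 10 of immature cells. They came from 10 of 26 preparations, 5 of each population, and each preparation had been hybridised to both of 2 array designs that carry different probe sets, the first set and, after the letter in its titles, the b set. Mature preparations carry the sort numbers 1, 3, 8, 9 and 11 and immature preparations 1, 2, 8, 9 and 11, and values by preparation are given below in that order. The remaining preparations are pre-BI, large pre-BII and small pre-BII cells, the earlier stages of the same lineage. No allele or agent is named for any group, and strain, age, sex and the number of animals per sort are not given in the sources used here. The title of 1 immature array, that of sort 1 on the first set, carries no gate in its label. An array titled as a second mature one of sort 1 was left out because all of its 6584 values equal those of mature sort 11, and 2 b-set arrays of mature sort 3 were averaged.

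An immature B cell is the first stage of the lineage with a complete B cell receptor on its surface, IgM without much IgD. Cells that pass tolerance checks leave the marrow, finish maturation in the spleen as transitional cells, and some of the resulting follicular cells return to the marrow as recirculating mature B cells. Maturation is known for the loss of the surface marker CD93 and of high CD24, the gain of IgD, CD21 and CD23, and a larger capacity to present antigen on MHC class II molecules.

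Levels are normalised intensities, which can be negative because the authors' values can be. Between 19.6 and 26.1% of the values of a first-set array were negative, and 33.9 to 40.5% of those of a b-set array. Levels under 251 on the first set or 319 on the b set lie within the noise judged from the negative values, and these 2 numbers are called the noise limit. Folds and log2 differences of single genes are between the means, on the log2 scale, of levels raised to the noise limit, mature relative to immature, with an SE over 5 against 5 preparations. Where the dimmer population had no preparation over the limit and the brighter had all over it, the fold is a lower bound, "at least". Where neither population had a preparation over the limit there is none. Where only some values of the dimmer population were raised to the limit, the fold understates the difference in level. The limma fit held all 26 preparations, its p-values were adjusted by Benjamini and Hochberg's method across every tested probe set, and "rose", "fell" and "changed" are used for an adjusted p under 0.05. Medians of gene lists, and differences given with sort number as a block, are on the scale of the fit unless stated otherwise. Its floor lies under the noise limit, so differences within the noise enter them. The labels do not say whether preparations are of separate animals, so the p-values rest on the spread between these preparations alone, which may be technical. In bulk samples, fewer cells of a type and less RNA per cell cannot be told apart. An 18S ribosomal RNA control read 3741 to 13523 on the first-set arrays of sorts 1 to 3 and −379 to 28 on those of sorts 8 to 11, so main results are also given within sorts 1 to 3 (2 against 2 preparations) and within sorts 8 to 11 (3 against 3).

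Of 10230 tested probe sets, 138 changed (1.35%), 65 higher (0.635%) and 73 lower (0.714%) in mature cells. An unadjusted p under 0.05 was reached by 795. The risen probe sets stand for 44 named genes and the fallen ones for 53, and no gene had probe sets in both directions. Of 5029 genes, each by its brightest probe set, 0.835% rose and 0.954% fell. Counts of changed members of the gene lists below are to be read beside these shares. Levels of mature and immature preparations did not overlap for 62 of the 65 rises and 62 of the 73 falls, against 322 of all tested probe sets. A difference of at least 2-fold over the noise limit was reached by 45 of the rises and 45 of the falls. The median log2 difference of all tested probe sets was 0.00755 on the scale of the fit. Within sorts 1 to 3 alone 12 probe sets changed, and within sorts 8 to 11 alone 64 did. All 138 kept their direction in both subsets. The subsets consist of the same preparations that gave the calls, so this is not a replication. For the 62 rises and 62 falls without overlap the direction could not have reversed. The leading rises and falls described below were chosen among those without overlap, so the lack of overlap adds nothing to their calls.

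**Figure D1:**
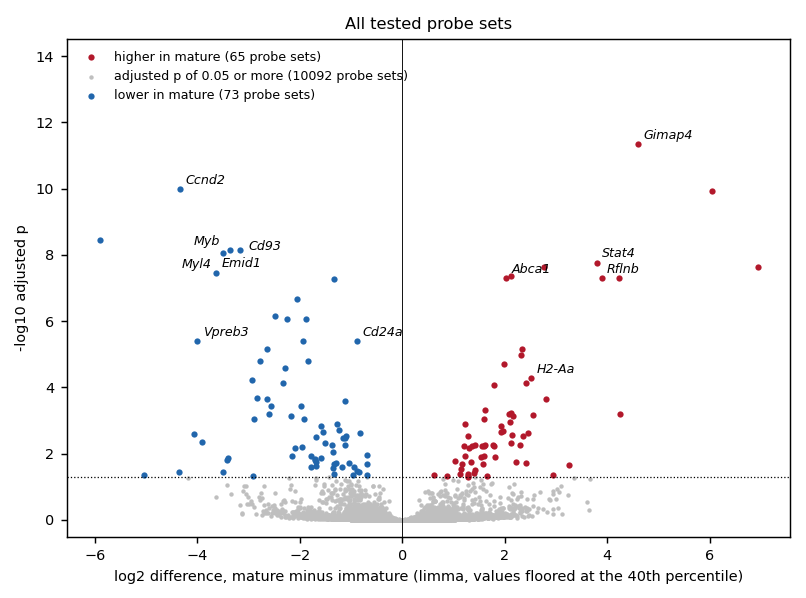
Each point is 1 tested probe set, with the log2 difference of mature minus immature cells from limma on the horizontal axis and −log10 of the adjusted p on the vertical axis. The 65 higher (red) and 73 lower (blue) probe sets lie above the dotted line at an adjusted p of 0.05, with Gimap4 at the upper right and Ccnd2 at the upper left.

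The genes behind the gates were examined first. Ptprc, which encodes CD45 with its B220 form, read 9572, 9317, 9039, 8972 and 8972 in mature cells, against 9039, 7327, 7489, 8386 and 9380 in immature cells. The ranges overlap and the difference did not pass (log2 difference 0.15 ± 0.07 SE, adjusted p = 0.94), although B220 on the surface separated the gates. Ighm, the mu heavy chain gene, did not pass by its brightest probe set either (−0.15 ± 0.09, adjusted p = 0.923). A second Ighm probe set read 7936, 4994, 3104, 3757 and 7399 in mature cells, against 15541, 7676, 9811, 7858 and 13276 in immature cells. Only the highest mature value lies above the lowest immature one, and the level was 2.04-fold lower in mature cells (−1.03 ± 0.33, adjusted p = 0.0657). Sort numbers were taken to pair the preparations, on weak correlations given with the processing. With sort number as a replicate block, by which 0.938% of probe sets were lower, this Ighm probe set was called lower (log2 difference −1.13, adjusted p = 0.00038). The remaining Ighm probe set was above the noise limit in 1 immature preparation, sort 11, and in no mature one. Spn, which encodes CD43, was under the limit in all 10 preparations.

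Ighd, the delta heavy chain gene and the usual mark of maturity, read 1019, 754, 701, 1023 and 987 in mature cells. In immature cells it read 205, 218, 340, 97 and 128, so the groups did not overlap and 4 of 5 immature preparations were under the noise limit. With those 4 values raised to the limit, the level was 2.74-fold higher in mature cells (1.46 ± 0.12), yet the fit of 26 preparations gave an adjusted p of 0.352. The fit of the 10 mature and immature preparations alone gave 0.00508, and the same 26 preparations with every value raised to the noise limit gave 2.03e-09.

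Further markers of the 2 labels were read in the same way. Of the mature markers, Gimap4, Cd55, Fcer2a and Cr2 rose, and Cd44 was under the noise limit in both populations. Of the immature markers, Cd93, Vpreb3 and Cd24a fell, and both recombinase genes, Rag1 and Rag2, were under the limit in both. Transcripts of the B lineage were bright in both populations. Cd79b, a signalling chain of the B cell receptor, averaged 10270 ± 1338 in mature cells and 12820 ± 764.7 in immature cells (SD, n = 5 each). Ms4a1, which encodes CD20, averaged 7971 ± 1708 in mature cells and 12030 ± 1848 in immature cells, and neither gene passed (adjusted p = 0.819 and 0.466). Pax5, the factor that holds B cell identity, was under the limit in both, by its b-set probe set.

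Gimap4 had the lowest adjusted p of all named genes. It encodes a GTPase of a family expressed in lymphocytes. Its level was 3135, 3532, 3556, 4598 and 3669 in mature cells, against 114, 90, 199, 193 and 203 in immature cells. Every immature value is under the noise limit, and Gimap4 rose at least 14.6-fold (3.87 ± 0.09, adjusted p = 4.66e-12), with log2 differences of 3.73 within sorts 1 to 3 and 3.96 within sorts 8 to 11. The other family member on the arrays, Gimap1, read 512, 1158, 1486, 1560 and 1225 in mature cells, against 225, 210, 936, 633 and 518 in immature cells. These ranges overlap and Gimap1 did not pass (1.15 ± 0.42, adjusted p = 0.701).

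Among surface receptors of mature B cells, 5 of the 22 tested genes of their list rose and 1 fell, with a median of 0.356. Fcer2a, which encodes the low-affinity IgE receptor CD23, read 7367, 4409, 6178, 6743 and 7728 in mature cells, against 1218, 2176, 1019, 1403 and 1871 in immature cells. It rose 4.3-fold without overlap (2.10 ± 0.25, adjusted p = 0.00112). Cd55, which encodes a complement decay-accelerating factor, read 2153, 1269, 3276, 2715 and 2305 in mature cells, against 368, 359, 631, 384 and 585 in immature cells. The groups lay apart and Cd55 rose 4.96-fold (2.31 ± 0.29, adjusted p = 1.04e-05). Cr2, which encodes complement receptor CD21, read 428, 356, 860, 810 and 703 in mature cells, against 70, 29, 132, 15 and 241 in immature cells. No immature preparation exceeded the limit, and Cr2 rose at least 1.87-fold (adjusted p = 0.0226). The call of Cr2 was lost when mature sort 8, 9 or 11 or immature sort 2 or 9 was left out (adjusted p up to 0.0943) and in the fit of the 10 preparations alone (0.0522), and a second Cr2 probe set showed no difference under the noise limit. Ccr7, the chemokine receptor for entry into lymph nodes, read 1245 to 2348 in mature cells and 308 to 851 in immature cells and rose 3.03-fold without overlap (adjusted p = 0.00588).

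**Figure D2:**
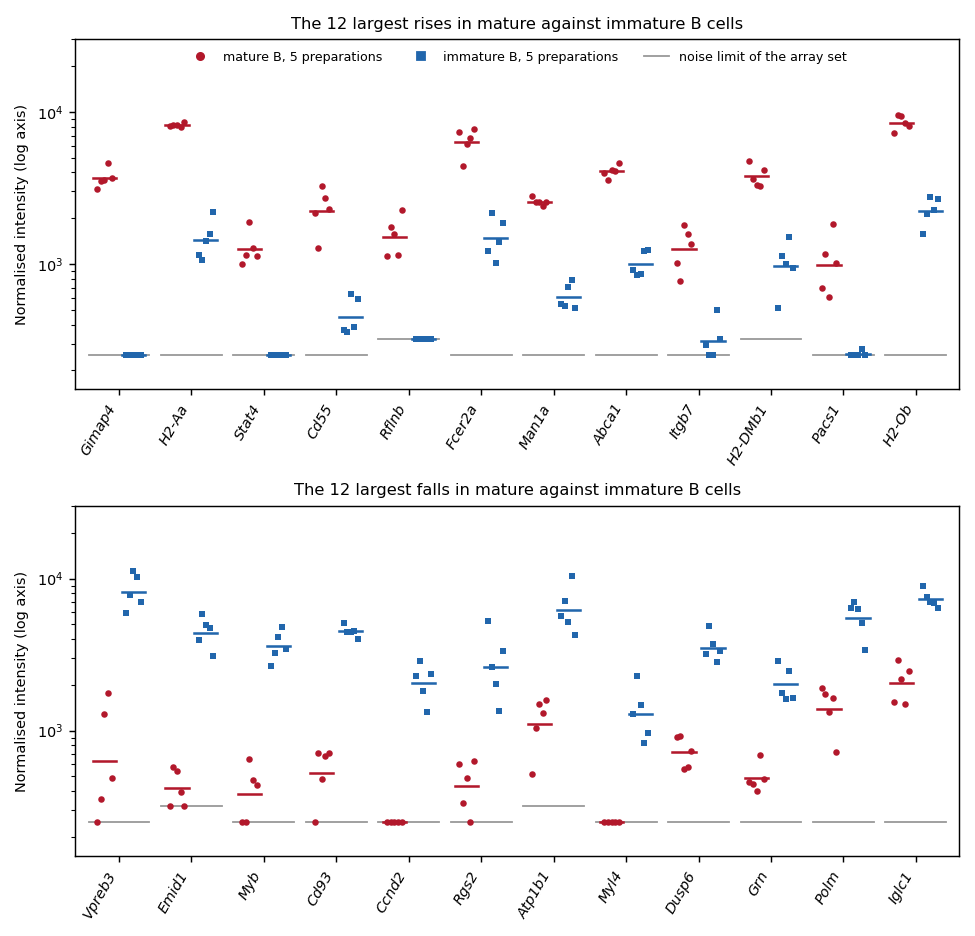
Normalised intensity on a log axis for the 12 largest rises (upper panel) and falls (lower panel) by fold over the noise limit, with 1 point per preparation, values under the noise limit (grey line) drawn at the limit, and short bars at the means of log2 values. The 24 genes were chosen so that mature (red circles) and immature preparations (blue squares) do not overlap. All immature values of Gimap4, Stat4 and Rflnb and all mature values of Ccnd2 and Myl4 lie at the limit.

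The other leading rises have varied roles. Stat4, the transcription factor of interleukin-12 signalling, read 1006, 1147, 1886, 1273 and 1136 in mature cells, against 53, −47, 106, 17 and 56 in immature cells. It rose at least 5-fold (2.32 ± 0.16, adjusted p = 1.72e-08), from values that were all under the noise limit in immature cells. Abca1, which exports cholesterol from cells, read 3997, 3591, 4157, 4065 and 4635 in mature cells, against 908, 852, 865, 1213 and 1240 in immature cells. Its groups lay far apart with little spread, and Abca1 rose 4.07-fold (2.03 ± 0.13, adjusted p = 5.03e-08). A second Abca1 probe set was under the limit in both populations. Man1a, a Golgi mannosidase that trims N-linked sugars, read 2786, 2541, 2558, 2420 and 2541 in mature cells, against 547, 532, 709, 782 and 513 in immature cells, a rise of 4.22-fold with no overlap (2.08 ± 0.13, adjusted p = 0.000616). Rflnb, a filamin-binding regulator of actin, rose at least 4.76-fold, with mature levels of 1134 to 2258 against immature levels of 46 to 182 (2.25 ± 0.19, adjusted p = 5.03e-08). Itgb7, the beta 7 integrin chain of gut homing, read 774 to 1813 in mature cells and 95 to 500 in immature cells and rose 4-fold (2.00 ± 0.29, adjusted p = 0.00298). Pacs1, a sorting protein of membrane traffic, read 607 to 1829 in mature cells and 0 to 275 in immature cells and rose 3.85-fold (1.94 ± 0.28, adjusted p = 0.000226).

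Ordered by the fold over the noise limit, the falls are led by Vpreb3, Emid1 and Myb, although Ccnd2, described below, has only a lower bound and cannot be placed among them. Vpreb3, whose product binds newly made immunoglobulin chains in B cell precursors, read 63, 358, 1296, 1780 and 492 in mature cells, against 5941, 7767, 11224, 10316 and 6969 in immature cells. The groups did not overlap, mature preparations spread more widely than immature ones on the log scale, and Vpreb3 fell 12.9-fold (−3.69 ± 0.57, adjusted p = 4.11e-06). The log2 difference was −4.50 within sorts 1 to 3 and −3.16 within sorts 8 to 11. Emid1, which encodes a secreted protein with an EMI domain, read 171, 577, 545, 398 and 261 in mature cells, against 3922, 5894, 4921, 4743 and 3082 in immature cells. It fell 10.5-fold, again without overlap (−3.40 ± 0.24, adjusted p = 3.47e-08). Myb, a transcription factor that B cell progenitors need, read 175, 208, 650, 476 and 439 in mature cells, against 2656, 3254, 4125, 4832 and 3424 in immature cells. All mature values lie far under the immature ones, and Myb fell 9.27-fold (−3.21 ± 0.31, adjusted p = 7.27e-09). A second Myb probe set was under the noise limit in all preparations but 1 and did not pass.

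Cd93, which encodes the receptor recognised by the AA4.1 antibody, read 188, 713, 481, 679 and 708 in mature cells, against 5124, 4465, 4428, 4534 and 3988 in immature cells. It fell 8.5-fold with no overlap (−3.09 ± 0.29, adjusted p = 7.27e-09), by −3.50 within sorts 1 to 3 and −2.81 within sorts 8 to 11. Cd24a, which encodes the heat-stable antigen, was bright in both populations, at 5894 to 8573 in mature cells and 12845 to 15541 in immature cells. Its fall of 1.84-fold was small beside that of Cd93 but lay outside the spread (−0.88 ± 0.11, adjusted p = 4.11e-06). Myl4, a myosin light chain of embryonic and atrial muscle, read 32, 145, 200, 79 and 74 in mature cells, against 1279, 2296, 1478, 825 and 962 in immature cells, a fall of at least 5.09-fold (−2.35 ± 0.26, adjusted p = 9e-09). Of the list of immature and precursor B genes 6 of 19 tested genes fell and 0 rose, where among all 5029 genes, each by its brightest probe set, 0.835% rose and 0.954% fell. They are Cd93, Vpreb3, Cd24a, Myb, Myl4 and Ly6d. Ly6d is an early B lineage surface gene, named here after its values were seen, at 4416 to 9709 in mature cells and 10389 to 15949 in immature cells (2.13-fold, adjusted p = 0.00284). With levels raised to the noise limit the list's median log2 difference was 0. On the scale of the fit the median was −0.252, against 0 for all genes, and 7 of 19 members were above 0. That median was −1.02 within sorts 1 to 3, where 3 genes passed, and 0 within sorts 8 to 11, where 6 did.

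Atp1b1, Rgs2, Dusp6 and Grn were also among the leading falls. Atp1b1, the beta subunit of the sodium pump, read 521, 1040, 1502, 1312 and 1600 in mature cells, against 5645, 7170, 5158, 10389 and 4244 in immature cells. It fell 5.57-fold without overlap (−2.48 ± 0.37, adjusted p = 6.77e-07). Rgs2, which shortens signals of G protein-coupled receptors, read 604, 332, 487, 112 and 632 in mature cells, against 5273, 2643, 2021, 1347 and 3351 in immature cells. It fell 6.06-fold (−2.60 ± 0.42, adjusted p = 0.000205), and its immature values ranged widely but stayed above every mature one. Dusp6, a phosphatase that switches off ERK, read 559 to 924 in mature cells and 2822 to 4859 in immature cells, a fall of 4.88-fold (−2.29 ± 0.20, adjusted p = 2.57e-05). Grn, which encodes the secreted protein progranulin, fell by each of its 3 probe sets, 4.14-fold by the one with the lowest adjusted p (−2.05 ± 0.21, adjusted p = 2.09e-07).

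Presentation on MHC class II was the gene list with the highest median among those with at least 5 tested members. Class II molecules are pairs of an alpha and a beta chain that carry peptides of endocytosed antigen to helper T cells. The invariant chain guards the empty pair, the H2-DM pair helps to load peptide, the H2-O pair restrains H2-DM, and Ciita is the transactivator of the whole group. By the fit of 26 preparations 4 of 15 tested genes rose and 0 fell, and 5 rose by any of their probe sets. The median log2 difference was 1.42 on the scale of the fit, where 14 of 15 members were above 0. It was 0.892 with levels raised to the noise limit. With sort number as a replicate block 4 rose as well. The fit of the 10 mature and immature preparations alone, in which 0.651% of probe sets were higher, called 9 of 15 higher.

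The classical chains differed most plainly by level. H2-Aa, the alpha chain of I-A, was measured by 5 probe sets, of which 4 rose, by 4.33-, 4.43-, 4.64- and 5.73-fold. The one with the lowest adjusted p read 8051, 8266, 8190, 7944 and 8641 in mature cells, against 1151, 1064, 1426, 1572 and 2212 in immature cells (2.52 ± 0.19, adjusted p = 5.24e-05). Mature preparations hardly varied and lay far above all immature ones, with log2 differences of 2.88 within sorts 1 to 3 and 2.27 within sorts 8 to 11. The brightest H2-Aa probe set read 16420 to 21829 in mature cells and 9738 to 12847 in immature cells and did not pass (1.86-fold, adjusted p = 0.471). It passed in the fit of the 10 preparations alone (adjusted p = 0.00181), and its mature levels lie near the top of the scale. H2-Ab1, the beta chain of I-A, read 10389, 8033, 10859, 13477 and 12162 in mature cells, against 1866, 1576, 3490, 3845 and 3845 in immature cells. H2-Eb1, the beta chain of I-E, read 15541, 13079, 14965, 14373 and 16826 in mature cells, against 3063, 5407, 4524, 3789 and 5593 in immature cells. Neither pair of groups overlapped, at 3.96-fold (1.99 ± 0.31) and 3.41-fold (1.77 ± 0.17) higher in mature cells. Neither passed in the fit of 26 preparations (adjusted p = 0.786 and 0.808), and both did in that of the 10 preparations (0.0037 and 0.000255). Levels of H2-Ab1 and H2-Eb1 in pre-BI and small pre-BII cells lay on both sides of 0, with H2-Eb1 averaging −157.7 in pre-BI and −228.8 in small pre-BII cells, and those preparations enter the spread of the larger fit.

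Of the loading and editing genes, H2-DMb1, H2-Ob and H2-Oa rose. None of them was called within sorts 1 to 3 (limma adjusted p = 0.146 to 0.419) or within sorts 8 to 11 (0.11 to 0.574). In the values as deposited none was called either (0.246 to 0.826), and their differences stayed positive in all of these fits. H2-DMb1, the beta chain of H2-DM, read 4743, 3626, 3310, 3239 and 4168 in mature cells, against 512, 1136, 1006, 1516 and 935 in immature cells, a rise of 3.92-fold without overlap (1.97 ± 0.28, adjusted p = 0.00211). H2-Ob, the beta chain of H2-O, read 7279, 9572, 9380, 8473 and 8051 in mature cells, against 1576, 2120, 2760, 2251 and 2659 in immature cells, a rise of 3.81-fold (1.93 ± 0.16, adjusted p = 0.00141). Both chains of the editing pair moved alike: H2-Oa, the alpha chain of H2-O, read 3120, 2337, 3439, 3662 and 2617 in mature cells, against 1162, 654, 948, 1007 and 1100 in immature cells. It rose 3.13-fold (1.65 ± 0.19, adjusted p = 0.0476), but the adjusted p was 0.0605 to 0.146 in the 10 fits that left out 1 preparation each. H2-DMa, the alpha chain of H2-DM, read 7858, 3765, 2120, 2432 and 3693 in mature cells, against 623, 1150, 860, 346 and 1564 in immature cells. Its groups lay apart at 4.42-fold higher in mature cells (2.14 ± 0.50, adjusted p = 0.158, and 0.0472 with the 10 preparations alone).

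Ciita itself was dim, at 333, 297, 239, 274 and 201 in mature cells, against −166, 77, 52, −38 and 5 in immature cells. It rose (adjusted p = 0.00092) with 3 of 5 mature preparations and no immature one above the noise limit. As values of both populations were raised to the limit, its fold of 1.11 is not a lower bound. Ctsh, a lysosomal protease, read 5247 to 7279 in mature cells and 1715 to 2830 in immature cells, 2.67-fold higher without passing (adjusted p = 0.23, and 0.00137 with the 10 preparations alone). The invariant chain gene Cd74 was already at the top of the scale in both populations, at 20320 ± 1750 in mature cells and 18740 ± 3600 in immature cells (SD, n = 5 each; adjusted p = 0.992). Ctss, the protease that cuts the invariant chain in B cells, averaged 7975 ± 665.5 in mature cells and 7322 ± 854.7 in immature cells (adjusted p = 0.979). Of the remaining members, H2-Ea, Ctsd and Lgmn did not pass, and Ctsb, a cathepsin, was the single member with a negative difference (−0.73 ± 0.27, adjusted p = 0.34). Class I genes gave a contrast: of 16 tested members of the class I and immunoproteasome list 0 rose and 0 fell, with a median of 0.0418. The difference between the class I and class II lists was not tested.

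**Figure D3:**
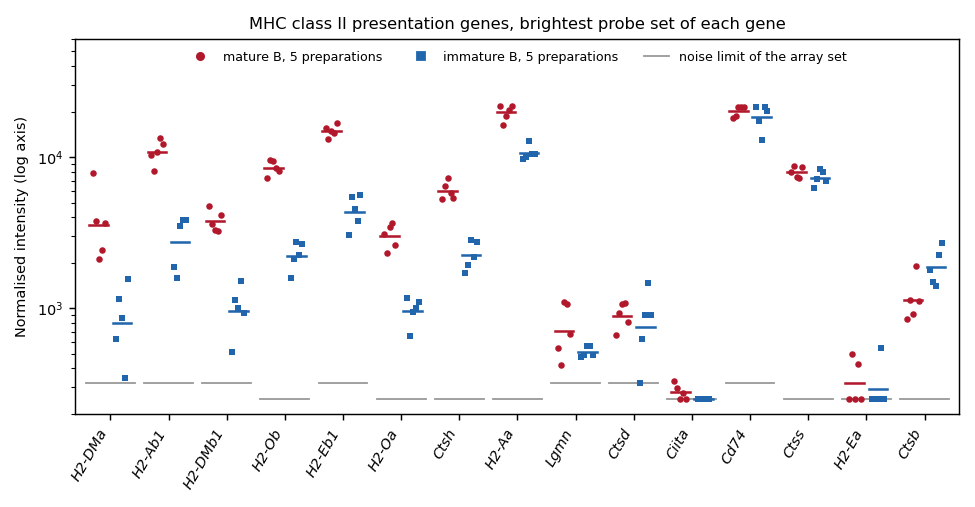
Normalised intensity on a log axis of the 15 tested class II presentation genes by their brightest probe set, with 1 point per preparation, bars at the means of log2 values and values under the noise limit (grey) drawn at the limit. Mature preparations (red circles) lie above immature ones (blue squares) without overlap for H2-DMa, H2-Ab1, H2-DMb1, H2-Ob, H2-Eb1, H2-Oa, Ctsh and H2-Aa, whereas those of Cd74 and Ctss overlap.

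Class II promoters are known for a shared module of W, X and Y boxes, so the upstream sequence of 4 of the 5 risen class II genes, all but Ciita, is shown, with the core of the Y box (ATTGG) in capitals where it lies 70 to 40 bases before the start of the gene. The bases are the 120 before the first-listed start in RefSeq (GRCm38.p6), read along the gene's strand, and Vpreb3 is added as the marker with the largest fall, with the reverse complement of the octamer motif ATGCAAAT in capitals.
H2-Aa (chr17:34287824-34287943, minus strand): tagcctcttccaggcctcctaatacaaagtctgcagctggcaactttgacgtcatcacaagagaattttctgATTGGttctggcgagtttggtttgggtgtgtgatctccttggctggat
H2-Ob (chr17:34238785-34238904, plus strand): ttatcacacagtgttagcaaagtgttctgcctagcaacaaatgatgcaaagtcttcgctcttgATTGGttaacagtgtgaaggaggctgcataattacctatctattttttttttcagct
H2-DMb1 (chr17:34153071-34153190, plus strand): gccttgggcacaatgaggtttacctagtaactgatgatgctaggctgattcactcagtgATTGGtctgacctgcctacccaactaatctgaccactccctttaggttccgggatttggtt
H2-Oa (chr17:34092259-34092378, plus strand): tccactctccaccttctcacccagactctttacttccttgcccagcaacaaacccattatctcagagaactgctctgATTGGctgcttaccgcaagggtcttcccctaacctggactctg
Vpreb3 (chr10:75948180-75948299, plus strand): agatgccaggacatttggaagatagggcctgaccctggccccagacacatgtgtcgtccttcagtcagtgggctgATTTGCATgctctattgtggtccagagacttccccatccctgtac

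The capitals start 48 bases before the start in H2-Aa, 57 in H2-Ob, 61 in H2-DMb1, 43 in H2-Oa and 45 in Vpreb3. The start used for Vpreb3 lies inside the gene as listed (chr10:75943024-75949657), and those of the class II genes at the edge of theirs. On the gene's strand in that window, ATTGG was found in 5 of the 9 class II list genes with a promoter in the table (55.6%), the 4 shown and H2-Eb1. It was found in 6 of 34 risen genes with a promoter (17.6%), 3 of 38 fallen ones (7.89%), 5.3% of 4022 tested genes and 4.25% of all 27025 promoters. The 6 risen genes are AU020206, Osbpl5 and the 4 class II genes shown. The window and this motif were chosen after the class II sequences had been seen, so the share of risen genes counts those sequences again. Anywhere in the 250 bases and on either strand, ATTGG was in 44.1% of risen, 34.2% of fallen and 34.5% of all promoters. The octamer was in 1 risen gene, Ms4a4c, and 1 fallen gene, Vpreb3 (2.94% and 2.63%, against 1.61% of all promoters). CAGGTG, the E-box of E2A, was in 8.82% of risen and 21.1% of fallen genes, Emid1 among the fallen ones, against 17.1% of all promoters. The Ebf1 motif, TCCC and GGGA with any 2 bases between, was in 2.94% of risen, 2.63% of fallen and 0.788% of all promoters, and the NF-kB motif, GGGA and TTTCC with any base between, in none of the risen or fallen ones and 0.337% of all. These shares are descriptions of the letters, with no test.

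Light chain and recombination genes were read next. Iglc1, a constant region of the lambda light chain, read 1535, 2918, 2174, 1507 and 2457 in mature cells, against 8900, 7612, 6969, 6891 and 6413 in immature cells. The groups lay far apart and Iglc1 fell 3.57-fold (−1.83 ± 0.20, adjusted p = 1.63e-05). It was the single immunoglobulin gene of 5 tested to change. Polm, the polymerase that fills gaps during light chain gene joining, read 1902, 1737, 1326, 1652 and 725 in mature cells, against 6383, 7016, 6344, 5077 and 3405 in immature cells. It fell 3.93-fold without overlap (−1.97 ± 0.31, adjusted p = 0.000374), as the single gene of 14 tested on the V(D)J recombination and repair list, whose median was −0.0241. The architectural protein gene Hmgb1 of that list averaged 3591 in mature cells and 4248 in immature cells and did not pass.

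Genes of B cell receptor signalling differed little as a list, with 1 of 19 higher, 0 lower and a median of −0.186. The risen gene was Tec, a kinase related to Btk, which read 2132, 2232, 3693, 2690 and 3000 in mature cells, against 998, 1169, 1502, 1140 and 1019 in immature cells (2.34-fold, adjusted p = 0.0118). Syk, the kinase that binds the phosphorylated receptor, was 1.38-fold lower in mature cells with groups that did not overlap, 4806 to 6762 in mature and 7592 to 9217 in immature cells, and did not pass (adjusted p = 0.598). With sort number as a replicate block Prkcd, a protein kinase C, was called lower (log2 difference −0.691, adjusted p = 0.0327, against −0.697 and 0.0513 without it). Prkcd is named here because the block changed its call. Of 13 inhibitory coreceptors and phosphatases 1 fell, Cd72, a coreceptor that restrains the receptor's signal. Cd72 read 1540, 1229, 2417, 2860 and 1991 in mature cells, against 5970, 2571, 4373, 5694 and 7232 in immature cells, with immature sort 2 inside the mature range (2.54-fold, adjusted p = 0.0271). That call was lost in 6 of the 10 fits that left out 1 preparation, those without mature sort 1, 3 or 11 or immature sort 1, 9 or 11 (adjusted p up to 0.0993), and in the fit of the 10 preparations alone (0.076).

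Few cell cycle genes changed. Over all 5029 genes, each by its brightest probe set, 0.835% rose and 0.954% fell. Ccnd2, a D cyclin that drives entry into S phase after receptor signals, read −45, 136, 31, 125 and 30 in mature cells, against 2296, 2873, 1829, 1329 and 2363 in immature cells. No mature preparation exceeded the noise limit and every immature one was far over it, and Ccnd2 fell at least 8.23-fold (−3.04 ± 0.19, adjusted p = 1.06e-10). Ccnd3, the D cyclin of pre-B cell proliferation, read 408 to 894 in mature cells and 1360 to 2135 in immature cells and fell 2.41-fold (adjusted p = 0.00129). A second Ccnd3 probe set had the same sign and did not pass (adjusted p = 0.528). These were the 2 of 18 tested genes of G1 cyclins and their partners that changed. The list's median was −0.276, or 0 with levels raised to the noise limit. Of 34 replication genes 1 passed, Rpa1, which was under the noise limit in both populations and lost its call in 8 of 10 fits without 1 preparation, all but those without mature sort 3 or immature sort 9 (adjusted p up to 0.145), and in the fit of the 10 preparations alone (0.0965). The medians of the replication and mitotic lists were 0.0426 and 0, and of 38 mitotic genes 1 rose. This was Smc4, a condensin subunit, at 1289, 935, 878, 920 and 918 in mature cells, against 353, 431, 295, 500 and 458 in immature cells (2.44-fold, adjusted p = 0.00298). Mature sort 1 stood highest and the groups did not overlap. The proliferation marker Mki67 averaged 461.8 in mature cells and 617.7 in immature cells and did not pass, nor did Cdk1, the mitotic kinase (adjusted p = 0.691 and 1). Of 18 CDK inhibitors and anti-proliferative genes 0 changed, Klf2 and Btg2 being the brightest. With the replicate block Gadd45b, a stress-induced gene of that list, was called lower (−1.06, adjusted p = 0.029, against 0.201 without it).

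Among 25 apoptosis and survival genes 1 rose. Bcl2, which protects mature lymphocytes from death, read 610, 349, 549, 674 and 388 in mature cells, against −111, 93, 76, 109 and 248 in immature cells. All mature values were over the noise limit and no immature one was, and Bcl2 rose at least 1.98-fold (adjusted p = 0.00475). A second Bcl2 probe set was close to the noise in both populations. Mcl1, a related survival gene, was lower in mature cells without overlap, 3532 to 5634 in mature against 5829 to 8329 in immature cells, and did not pass (−0.56 ± 0.16, adjusted p = 0.652). With the replicate block Bcl2l11, which encodes the death inducer Bim, was called higher (1.33, adjusted p = 0.0388, against 0.162 without it). Of 13 NF-kB factors and feedback genes 0 changed, with a median of 0.373, or 0.0237 with levels raised to the noise limit. The fit of the 10 preparations alone called 2 further survival and cytokine genes, Bcl2l1 lower (adjusted p = 0.0486) and Il4ra, the interleukin-4 receptor chain, higher (0.0458). Bcl2l1 averaged 121.2 in mature cells and 456.2 in immature cells, and Il4ra 3446 and 1601 in the same order.

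Receptors and signal carriers of cytokines rose in 3 of 30 cases and fell in 0, with a median of 0.184. Beside Stat4, these were Jak2 and Ifngr1. Jak2, a kinase bound to cytokine receptors, read 331, 396, 441, 457 and 556 in mature cells, against 108, 104, 125, 318 and 137 in immature cells (1.63-fold, adjusted p = 0.0202). A second of its 4 probe sets rose as well and the 2 others were under the noise limit. Ifngr1, a chain of the interferon gamma receptor, read 1705, 853, 1443, 1334 and 1326 in mature cells, against 186, 471, 559, 537 and 1035 in immature cells, with 1 value of each group in the range of the other (2.52-fold, adjusted p = 0.0309). Leaving out 1 preparation ended the call of this Jak2 probe set in 6 of 10 fits, those without mature sort 9 or 11 or immature sort 1, 2, 8 or 11 (adjusted p up to 0.0744). It ended that of Ifngr1 in 8 of 10, all but those without mature sort 3 or immature sort 11 (up to 0.108), and the fit of the 10 preparations alone did not call Ifngr1 (0.176). None of 30 interferon-induced genes changed (median −0.00741). Of 31 homing and adhesion genes, Itgb7 and Ccr7 rose and Rgs2 fell, with a median of 0.156 and 23 of 31 above 0.

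Transcription factors of the B lineage changed in 2 of 41 cases, both lower. Beside Myb this was Hes1, a repressor downstream of Notch, at 105, 85, 46, 30 and 82 in mature cells, against 265, 847, 794, 443 and 1136 in immature cells. No mature value exceeded the noise limit and all immature ones did, a fall of at least 2.46-fold (adjusted p = 1.65e-05). Of 20 immediate-early genes 1 fell, Rgs2, and 1 rose, Dusp1, whose values were under the noise limit in both populations and whose call ended without mature sort 1 or 9 or immature sort 2 or 8 (adjusted p up to 0.0835) and in the fit of the 10 preparations alone (0.247). The single fall among the mature surface genes was Cd1d1, which presents lipids to NKT cells, at 390 to 595 in mature cells and 795 to 1302 in immature cells (2.18-fold, adjusted p = 0.00329).

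Cytoskeletal genes changed in 2 of 51 cases, 1 in each direction, with a median of 0.0395. Tuba1a, an alpha tubulin, rose by both of its probe sets, 3.0-fold by the brightest, which read 3634, 3208, 2472, 3043 and 1863 in mature cells, against 1141, 1252, 967, 1016 and 475 in immature cells (adjusted p = 0.0118). The adjusted p of this probe set was 0.0515 without immature sort 11, the lowest of the 10 values. Marcks, an actin-binding substrate of protein kinase C, fell by each of its 3 probe sets, at least 2.59-fold by the brightest (adjusted p = 7.6e-05). With the replicate block 3 further actin regulators were called lower, Capzb (−0.723, adjusted p = 0.0449), Myo1c (−0.863, 0.0288) and Dbnl (−1.32, 0.0374). None of the 3 passed without it (adjusted p = 0.164, 0.483 and 0.0804).

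Oxidative phosphorylation and ribosomal protein genes differed little per gene but mostly in 1 direction each. Of 34 oxidative phosphorylation genes 4 had a positive difference, and the median was −0.311, between −0.46 and −0.28 over the processing alternatives. One gene passed, Slc25a4, the mitochondrial ADP/ATP carrier, at 325, 287, 373, 421 and 370 in mature cells, against 693, 816, 693, 622 and 603 in immature cells (1.9-fold lower, adjusted p = 0.0438). Its adjusted p was 0.0514 to 0.131 in the 10 fits that left out 1 preparation. Of 42 cytosolic ribosomal protein genes 35 had a positive difference with a median of 0.275, and 0 passed. The brightest of them, Rpl41 and Rpl23, overlapped between the populations and had small negative differences. Both read up to 21829, near the top of the scale, where a difference could hardly show. The glycolysis list (median 0.0178, 0 of 12 changed) and the chaperone list (median −0.0602, 0 of 28) stayed close to the median of all genes.

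**Figure D4:**
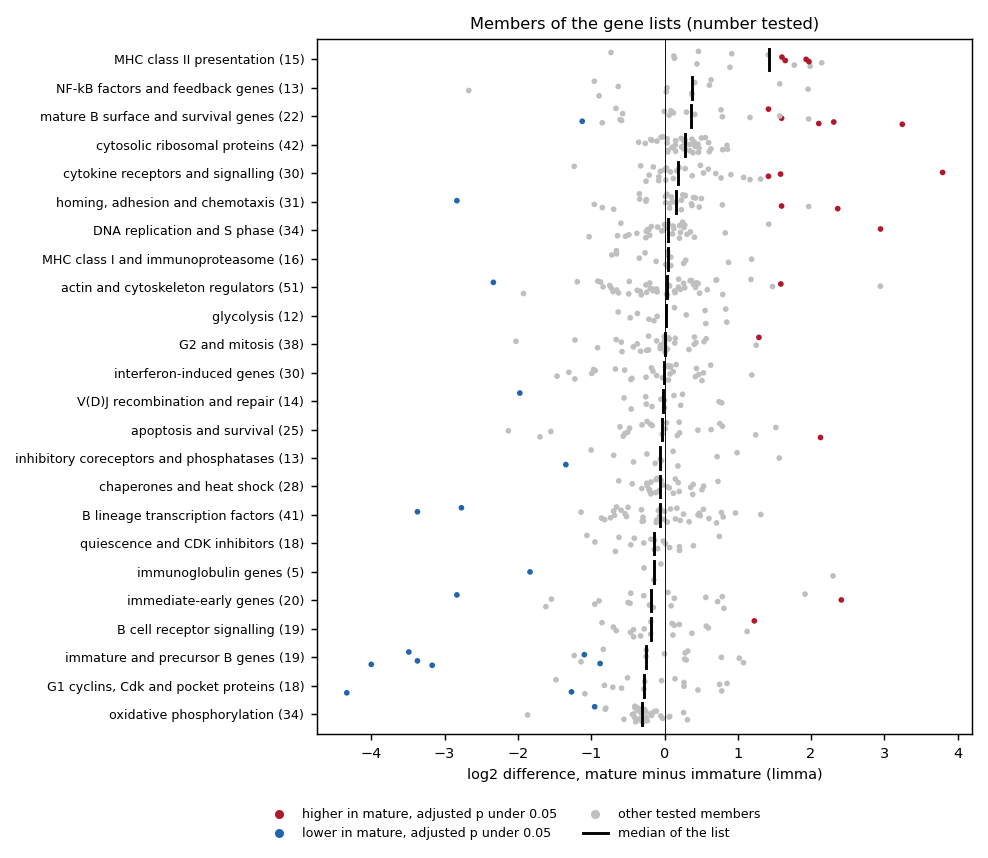
Log2 difference of mature minus immature cells from limma for every tested member of 24 gene lists, 1 row per list with the number tested in parentheses, members by their brightest probe set and a black bar at the median of the list. MHC class II presentation has the highest median, 1.42, and oxidative phosphorylation the lowest, −0.311, while most lists centre near 0.

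The levels were then set beside those of the 3 earlier populations, without a test. Of the 65 risen probe sets, 3 had their highest mean of all 5 populations in pre-BI cells, 7 in large pre-BII cells and 55 in mature cells. They were picked for being higher in mature than in immature cells, which favours mature cells in this count. No share over all tested probe sets is given beside it. Gimap4 read 288 to 715 in pre-BI cells, under the noise limit in all large and small pre-BII and immature preparations, and at 3135 or more in mature cells. Stat4 averaged 918.9 in pre-BI cells and was over the limit in 1 small pre-BII preparation and no large pre-BII or immature one. Fcer2a was at the noise in all 3 earlier populations apart from 1 large pre-BII preparation. Smc4 and Tuba1a were the other way round: Smc4 averaged 3420 in large pre-BII cells and Tuba1a 12900, above the mature means of 988 and 2844.

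Of the 73 fallen probe sets, 12 had their highest mean in pre-BI cells, 8 at the large and 19 at the small pre-BII stage, and 34 in immature cells. The choice of falls favours immature over mature cells in the same way. Cd93 and Vpreb3 were far over the noise limit in all 4 other populations and had their lowest means in mature cells. Means of Cd93 were 9128 for pre-BI, 7679 for large pre-BII and 8727 for small pre-BII cells. Myb had its highest mean, 12610, in small pre-BII cells, above the 3658 of immature cells. Emid1 and Ccnd2 were highest in immature cells, the stage between 2 lower ones. Means of Emid1 were 363.2 for pre-BI, 1374 for large pre-BII, 1338 for small pre-BII and 4512 for immature cells. Ccnd2 read 407 to 1217 in pre-BI cells, was under the noise limit in every large and small pre-BII preparation, averaged 2138 in immature cells and was under the limit again in mature cells. Iglc1 had means of 323.1 for large pre-BII, 5410 for small pre-BII, 7357 for immature and 2118 for mature cells.

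**Figure D5:**
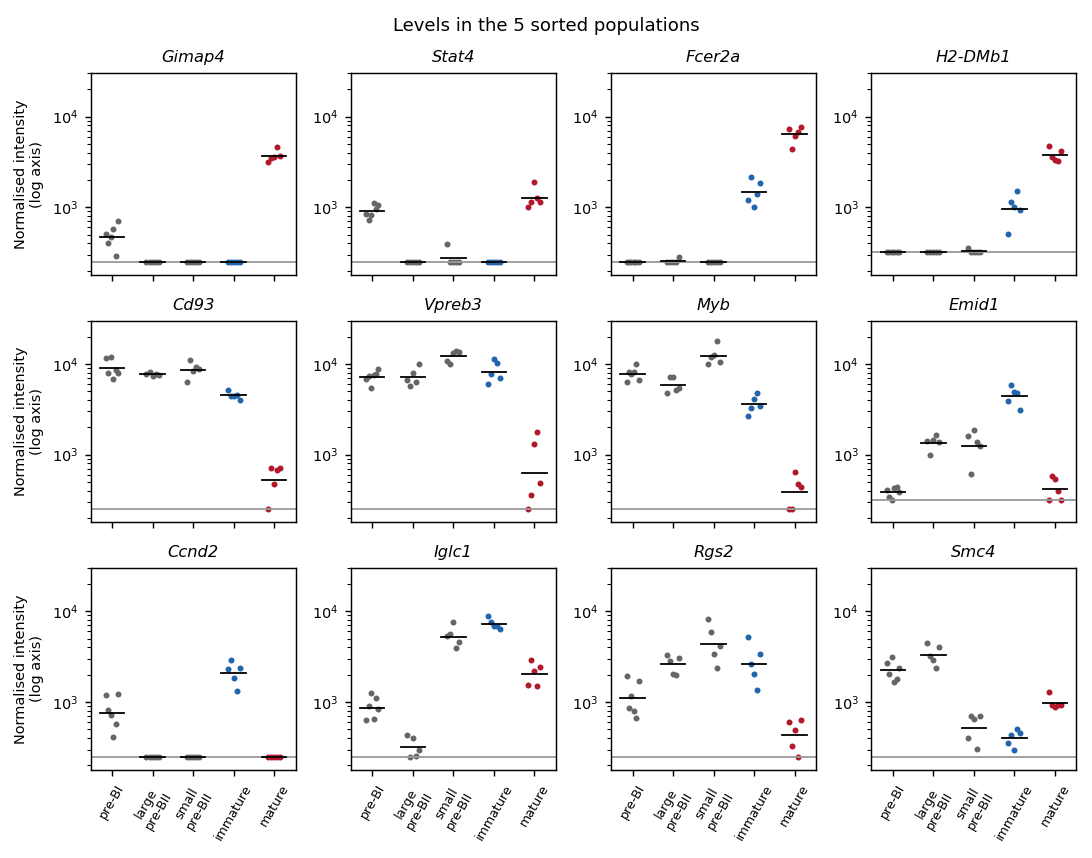
Normalised intensity on a log axis of 12 of the genes in the 5 sorted populations in order of development, with 1 point per preparation (6 of pre-BI cells, 5 of each other), bars at the means of log2 values and the noise limit as a grey line at which lower values are drawn. Gimap4 is above the limit in pre-BI and mature cells, Stat4 in those and in 1 small pre-BII preparation, Ccnd2 in pre-BI and immature cells, and Cd93, Vpreb3 and Myb in all populations with their lowest values in mature cells.

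Markers of other cell types were measured beside these results, and their part in them was not tested. None of 12 granulocyte, 14 monocyte and macrophage, 9 T and NK cell, 10 erythroid and platelet, 8 plasma cell and 5 dendritic cell genes changed. Summed granulocyte levels ranged from 4124 to 7821 in mature cells and from 3684 to 5438 in immature cells. Of the 12 members, 6 were over the noise limit in at least 1 preparation of each population. Ngp, a granule protein, was the brightest, and S100a9 was over the limit in all 10 preparations. Elane, Mpo, Ltf and Ly6g were under it in all 10. Summed monocyte and macrophage levels ranged from 5237 to 7570 in mature cells and from 4101 to 6913 in immature cells, mostly Lyz2. Of the 14 members, 7 were over the limit in at least 1 preparation of each population. Among these was Ccr2, in 4 mature and 5 immature preparations, while Adgre1, C1qa and Fcgr3 were under the limit. Those of T and NK cells were 296 to 639.9 in mature cells and 341.7 to 765.3 in immature cells, with Cd3d, Cd3g, Cd4 and Thy1 under the limit throughout. Erythroid and platelet sums, mostly the globins Hba-a1 and Hbb-b2, were 18780 to 25470 in mature cells and 16170 to 21460 in immature cells. Plasma cell sums were lower in mature cells, 883.5 to 2391 against 2362 to 3002 in immature cells, with Sdc1 and Prdm1 under the limit. Dendritic sums were 2678 to 4262 in mature cells and 2112 to 3441 in immature cells, with Flt3 under it. In each population 4 of 8 plasma cell and 4 of 5 dendritic genes were over the limit in at least 1 preparation. Of 8 genes of marginal zone and B-1 B cells, Cr2 rose and Cd1d1 and Plac8 fell, with sums of 3249 to 8354 in mature cells and 4988 to 11270 in immature cells. Plac8, a small cysteine-rich protein gene, read 1029 to 1972 in mature cells and 2873 to 6629 in immature cells (3.01-fold, adjusted p = 0.00142).

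Other changed genes are named here after their values were seen. Ms4a4c, a member of the CD20 family, read 601, 454, 949, 1010 and 793 in mature cells, against 141, 100, 112, 39 and 101 in immature cells. It rose at least 2.9-fold (adjusted p = 2.27e-08), and its relative Ms4a6b rose as well, with no immature preparation over the limit (adjusted p = 0.00598). Macf1, which links microtubules to actin, read 6309 to 11663 in mature cells and 3297 to 4185 in immature cells (2.22-fold, adjusted p = 0.0282). Among the falls, Pafah1b3, a catalytic subunit that inactivates platelet-activating factor, read 2503, 1704, 1783, 2130 and 2007 in mature cells, against 5077, 5634, 4910, 5512 and 4295 in immature cells. Its fall of 2.52-fold was small but had a very narrow spread (adjusted p = 5.25e-08). Zfpm1, a cofactor of GATA factors, read −148 to 236 in mature cells and 487 to 1245 in immature cells and fell at least 3.21-fold (adjusted p = 6.12e-05). Cd36, a scavenger receptor, read 12 to 309 in mature cells and 484 to 896 in immature cells and fell 2.67-fold (adjusted p = 0.000219), although its means in pre-BI, large and small pre-BII cells were all under the limit (150.5 for pre-BI, 130.4 for large and 5.485 for small pre-BII cells). Sdc4, the proteoglycan syndecan-4, read 2866 to 4140 in mature cells and 5273 to 10316 in immature cells and fell 2.17-fold (adjusted p = 0.00535).

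Of the changed probe sets, 16 of the rises and 16 of the falls have no single gene symbol in the annotation used. Among the rises without a symbol, probe set m25324_s_at read 7555, 6969, 8109, 8818 and 6073 in mature cells, against 221, 513, 599, 300 and 473 in immature cells, 18.4-fold higher (adjusted p = 5.03e-08), beside the lower bound of 14.6-fold for Gimap4. Probe set m18184_s_at rose 5.3-fold (adjusted p = 7.27e-05). Among the falls without a symbol, j03023_s_at fell 5.86-fold (adjusted p = 0.000374) and w11156_g_at 3.66-fold (adjusted p = 8.48e-07), with mature levels of 3104 to 3953 against 10683 to 15541 in immature cells.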

How the data were processed

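Intensities on a linear scale, with negative values, were computed and deposited by the authors, 1 table per array set (6584 and 6595 probe sets). Their extraction and scaling are not given in the sources used here. Trimmed means (2%) differed 3.86-fold and 3.22-fold between arrays, so quantile normalisation was run on each table, without its share of 110 control probe sets. The 40th percentile (87.3 and 7) then served as a floor before log2 transformation. Testing took in the probe sets that exceeded it in 5 or more of 26 preparations (5023 and 5207), with limma 3.58.1 in R 4.3.3 (lmFit, eBayes with a trend, population as the single term). The procedure was tested on simulated data. The noise limit is 2 robust standard deviations of the negative values. Gene symbols came from the platform annotation (7542 probe sets with 1 symbol, 224 with several, 5303 with none), and promoters from RefSeq (GRCm38.p6).

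Sort numbers come from the labels. Deviations from population means correlated between mature and immature preparations of equal number (r = 0.21, 0.12, 0.15 and 0.14 for sorts 1, 8, 9 and 11), each over 0.1, so the numbers were taken to pair. The highest correlation with another sort was as high for sort 8 (0.12) and close for sort 9 (0.11). Both b-set arrays of mature sort 3 had a Spearman correlation of 0.742 over probe sets. The members and lists were chosen with earlier results of these data known. The text names the genes of the gates and the 3 given markers, and the 12 largest rises and falls by fold over the noise limit, with 1 symbol, at least 2-fold and without overlap. It also names up to 5 changed members of each list by adjusted p, or the 2 brightest where fewer than 2 changed. The number of arrays limits the precision.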

Additional observations from a re-analysis of the deposited data

Results flagged for a closer look

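In 12 of 161 groups of 5 preparations of the named probe sets, 1 preparation stood apart from the other 4 by Dixon's test, on levels raised to the noise limit. At 5%, about 8.1 groups would be set apart by chance if no level were raised to the limit. A group with a single preparation over the limit is always set apart, so 12 cannot be weighed against 8.1. No explanation was tested for any of them.

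Among mature preparations, sort 1 was high for Smc4 (1289, the others 878 to 935) and low for Gimap1 (512, the others 1158 to 1560). Mature sort 11 was low for the chaperonin gene Cct2 (2558, the others 4585 to 5207). Mature sort 8 was the single one of its group above the noise limit for Creld2 (257). Among immature preparations, sort 1 was low for Samhd1 (2708, the others 4699 to 4928) and high for the chemokine receptor gene Ccr2 (1007, the others 265 to 350). Immature sort 11 was low for Tuba1a (475, the others 967 to 1252) and high for Tcf4 (1863, the others 825 to 1010). In 4 further immature groups the named preparation stood apart because few or none of the others exceeded the noise limit. These were sort 11 for the Ighm probe set Msa.2056.0_f_at (407), sort 8 for Ighd (340), and sort 9 for Pacs1 (275) and Jak2 (318).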

How the results depend on the processing

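Of the 138 changed probe sets (65 higher, 73 lower), all kept their direction under every alternative in which they were tested, except 1 of 124 with the floor at the noise limit. That probe set had no difference left there rather than a reversed one, as all its mature and immature values lay under the limit. The alternatives use the same preparations, so they are not independent of the calls. The count fell to 47 (21 higher, 26 lower) in the values as deposited, to 12 (6 and 6) within sorts 1 to 3 and to 64 (31 and 33) within sorts 8 to 11, the last 2 with fewer preparations. With the floor at the 25th percentile (at 1 on the b set, where that percentile was negative) 42 were higher. With the floor at the 60th percentile 177 changed (90 higher), and with it at the noise limit 186 did (96 higher). With sort number as a replicate block 171 changed (75 higher, 96 lower), 128 of the 138 among them. Beyond the calls given in the report, this fit with a block changed no list count. Leaving out 1 preparation at a time gave 116 to 130 changed, 54 to 61 higher and 57 to 75 lower. The cause of these shifts was not tested. The fit of the 10 preparations alone called 130, 102 of the 138 among them. The share of higher calls was 44.7 to 49.3% over the scalings (47.1% here). Of 44 changed probe sets of named genes, 35 were called in all fits without 1 preparation, and Gimap4, Vpreb3, Myb, Ccnd2, Atp1b1 and Myl4 under all 15 other alternatives as well. Signal over background limits the dim genes: only 6180 of 10230 tested probe sets had a preparation over the noise limit, and 2 rises and 4 falls had none.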
